A study of Mus musculus with 10 samples.

Results

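The nuclear genes of the mitochondrial respiratory chain were followed, complex by complex, in transferred CD4 T cells with and without the transcription factor TOX. The set holds 85 of the 53656 genes in the count tables. Members were taken by symbol: those beginning with Ndufa, Ndufb, Ndufc, Ndufs or Ndufv (38 genes, complex I, without the Ndufaf assembly factors), the 4 succinate dehydrogenase genes Sdha to Sdhd (complex II), those beginning with Uqcr (8, complex III), with Cox4 to Cox8 (18, complex IV) or with Atp5 (17, complex V). Pseudogene names were left out. Symbols alone decided membership, but the gene set was chosen with earlier results of these data known.

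Complexes I to IV pass electrons from NADH and succinate to oxygen, complexes I, III and IV pump protons across the inner mitochondrial membrane as they do so, and complex V, the ATP synthase, uses the proton gradient to make ATP. Complex II subunits are all nuclear genes, while the other complexes also need subunits made from mitochondrial DNA. In T cells the chain supports the proliferation that follows activation, and reduced mitochondrial respiration is a known trait of T cells held under chronic antigen.

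The 10 libraries came from naive TCRSMARTA CD4 T cells, which carry a transgenic T cell receptor against the GP61 peptide of a viral glycoprotein. Cells of both genotypes had been given to B6 hosts that were treated with cytoxan and bore B16-GP61 melanoma, and were recovered from the tumour-draining lymph node 11 days later. The 6 TOX KO libraries were of CD4+ Ly5.1+ Ly5.2- cells low for PD1, LAG3 and CD39. The 4 TOX WT libraries were of CD4+ Ly5.1+ Ly5.2+ cells high for the same 3 receptors, so genotype, congenic marker and sort gate cannot be told apart in any comparison given here. The labels name no animals, so each p-value here speaks for the spread among 10 libraries and not for animals, and part of that spread may be technical. They do not say how the Tox allele was deleted or whether hosts were pooled.

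Libraries held 31939816 to 55784453 counts in genes. Tox, the targeted gene, stood at 15.3 to 67.9 CPM (counts scaled to the size of the library) in KO and 170 to 357 CPM in WT (edgeR log2 fold change -2.93, SE 0.48, adjusted p = 0.010). T cell marker genes (genes of the T cell receptor complex, and Cd4) were present in every library. Their sum over 8 genes was 15379 to 30385 CPM in KO and 8689 to 21261 CPM in WT. Of the 8 fold changes 7 were positive (median 0.69) and 0 were called by edgeR. At edgeR unadjusted p under 0.05, 3 were higher, beside 7.15% of all genes. B and plasma cell markers (12 of 12 tested) summed to 1049 to 2035 CPM in KO and 8298 to 66600 CPM in WT, with 9 lower in KO. Macrophage, monocyte and dendritic cell markers (14 of 15 tested) summed to 21.6 to 213 CPM in KO and 1647 to 7687 CPM in WT, with 5 lower in KO, and Clec9a was at 0 in all KO libraries. Proliferation markers summed to 572 to 1168 CPM in KO and 1631 to 3397 CPM in WT, with 7 of 16 lower. Red blood cell markers (5 of 6 tested) went the other way. They summed to 1.98 to 396 CPM in KO and 0.34 to 56 CPM in WT, so the ranges overlapped. All 5 fold changes were positive and 0 were called by edgeR, with 2 higher at edgeR unadjusted p under 0.05. The part of these differences in the values below was not tested, and in bulk samples fewer cells of a type and less RNA per cell cannot be told apart.

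3 WT libraries stood apart within the gene set. WT 1 (replicate 1, and so on) had the highest CPM of the 10 libraries for 66 of the 80 members tested. WT 2 and WT 4 ranked the 80 members almost alike (Spearman 0.99 across genes), and their rank correlation with the other 8 libraries was 0.56 to 0.82, against 0.81 to 0.99 among those 8. These are descriptions over genes that share libraries and depth. The member median and the complex sums are therefore also given without these libraries.

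The members differed in a sequence feature that is shown here because the level of members in WT 2 and WT 4 followed it. It is the GC content of the GC-richest 100 bases of the transcript, from the longest protein-coding transcript of each gene in GENCODE M21. The 3 members lowest in WT 2 and WT 4 relative to the other libraries and 3 members that were not low there are given by the richest 100 bases of their coding sequence, read along the transcript, with G and C in capitals. The genomic interval (GRCm38) runs from the first to the last base and includes introns where the stretch joins exons.
Cox5a (chr9:57521333-57528972, plus strand): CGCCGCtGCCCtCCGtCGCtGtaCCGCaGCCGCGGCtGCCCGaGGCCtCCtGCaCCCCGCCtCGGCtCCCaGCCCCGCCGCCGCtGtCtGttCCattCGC
Uqcrfs1 (chr13:30545137-30545236, minus strand): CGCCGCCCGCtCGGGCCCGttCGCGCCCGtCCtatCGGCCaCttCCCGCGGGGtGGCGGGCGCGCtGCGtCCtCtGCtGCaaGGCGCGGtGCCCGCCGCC
Atp5d (chr10:80142471-80142570, plus strand): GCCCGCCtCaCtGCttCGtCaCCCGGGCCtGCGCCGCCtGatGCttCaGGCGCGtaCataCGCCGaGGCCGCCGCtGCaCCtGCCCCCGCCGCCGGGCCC
Ndufa4 (chr6:11906046-11907360, minus strand): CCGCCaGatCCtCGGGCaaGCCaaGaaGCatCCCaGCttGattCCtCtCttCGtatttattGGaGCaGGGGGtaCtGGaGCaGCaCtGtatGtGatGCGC
Cox7c (chr13:86045794-86045893, minus strand): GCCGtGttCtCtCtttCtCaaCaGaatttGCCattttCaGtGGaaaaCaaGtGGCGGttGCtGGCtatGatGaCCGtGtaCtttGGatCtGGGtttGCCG
Uqcrb (chr13:66901559-66905310, minus strand): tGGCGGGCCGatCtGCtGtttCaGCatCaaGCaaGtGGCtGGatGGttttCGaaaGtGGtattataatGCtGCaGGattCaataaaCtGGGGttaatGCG
These coding stretches were 77%, 81% and 77% GC in the first 3 genes and 55%, 48% and 47% in the last 3. The last 3 lie at the GC-poor end of the 69 tested members that were not low. Their GC-richest 100 bases of transcript held 60%, 56% and 59%, against a median of 68% in the 69. Other members that were not low had stretches as rich as the low ones, such as Atp5g2 and Atp5j at 80%. All 6 lie within the coding exons of their genes: the Uqcrfs1, Atp5d and Cox7c stretches each in 1 exon, those of Cox5a and Ndufa4 across 2, and that of Uqcrb across 3.

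Of the 85 members, 80 had enough counts to be tested. Ndufa4l2, Cox7a1, Cox7b2, Cox8b and Cox8c were not, of which Cox7b2, Cox8b and Cox8c had no count in any library. 1 gene fell in KO, Cox6a2 of complex IV, and 0 rose (edgeR quasi-likelihood test, adjusted p threshold 0.05 over 14214 genes). Over all genes tested, 2.7% were called lower and 0.429% higher. Without adjustment 5 members were lower at p under 0.05 (Cox6a2, Cox4i2, Ndufs1, Sdhd and Ndufa9) and 0 higher, beside 10.8% of all genes lower and 7.15% higher by the same rule. In 63 of the 80 members the log2 fold change (KO minus WT) was negative and in 17 positive, with a median of -0.35, beside 54.3% negative and a median of -0.12 over all genes tested. KO and WT libraries did not overlap in CPM for 1 member, Cox6a2 with KO below, beside 6.31% of all genes with KO below and 2.59% with KO above.

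The median over members depended on the libraries that stood apart. It was 0.016 without WT 1 (all genes -0.13) and -0.49 without both WT 2 and WT 4 (all genes -0.048). Without KO 1 it was -0.19 (all genes -0.039). Library names carry numbers whose meaning the labels do not give. Within numbers 1 to 3, which hold 3 KO libraries and WT 1 alone, the median was -0.97 beside 0.37 for all genes. Within numbers 4 to 8, with 3 KO and 3 WT libraries, it was -0.075 beside -0.092 for all genes.

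Scaling mattered too. When the libraries were scaled to the 8 T cell marker genes, whose fold changes were mostly positive, the median of all genes moved to -0.92 and that of the members to -0.998. On that scale 26 members were called lower by edgeR and 0 higher, beside 13.1% of all genes called lower. Of the 26, 11 were in complex I, 1 in complex II (Sdhd), 3 in complex III, 6 in complex IV and 5 in complex V. Cox5b, Cox6a1, Cox8a and Atp5a1 then turned from a positive to a negative fold change, as did the summed levels of complexes III (-0.40) and V (-0.40).

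**Figure D1:**
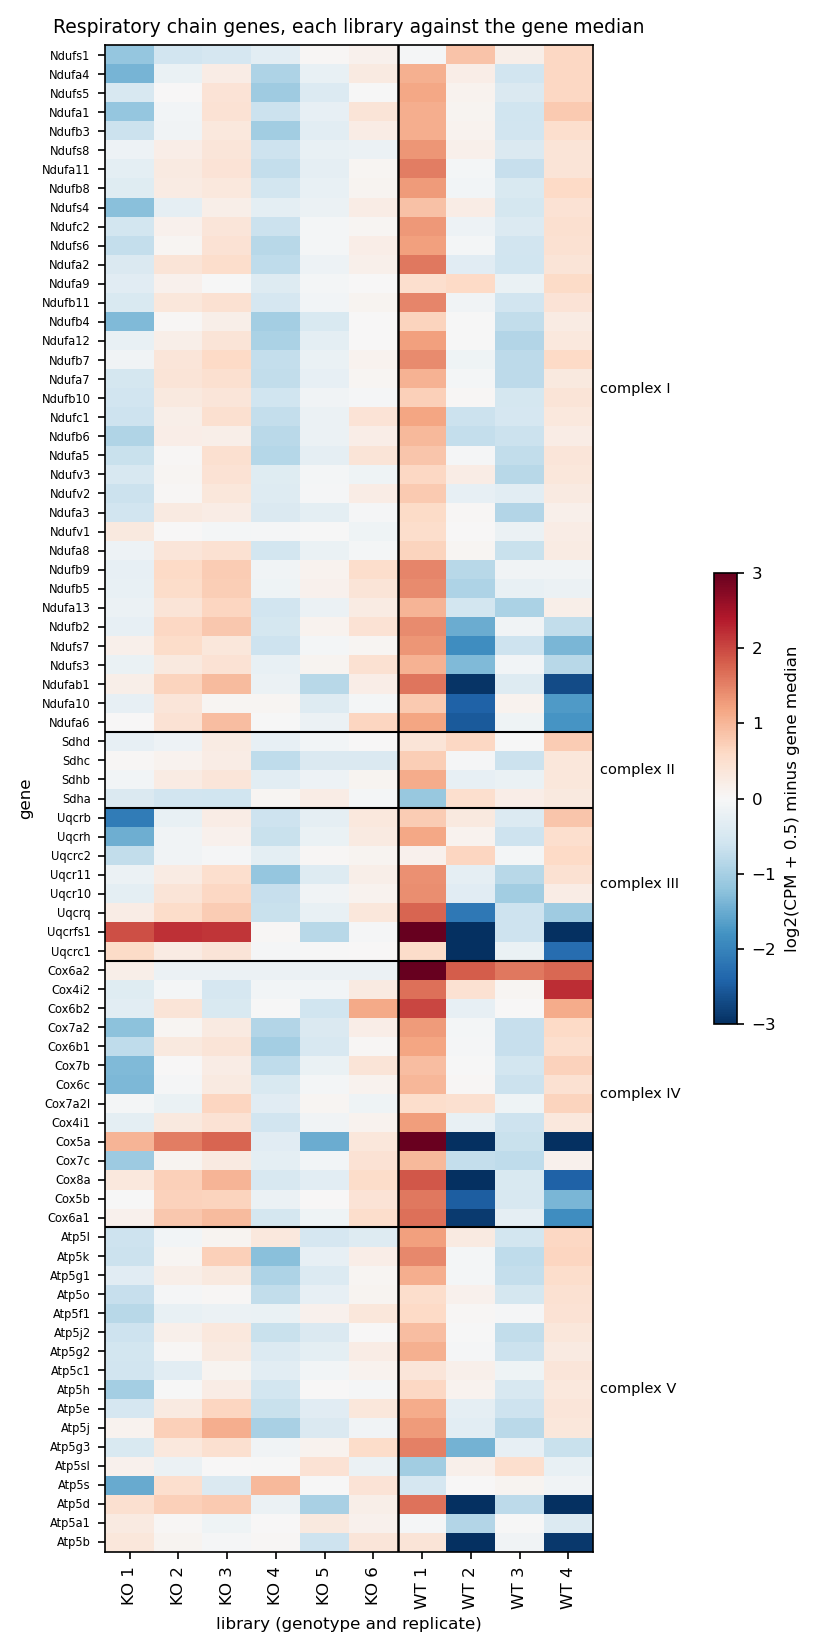
Level of 79 of the 80 tested members (rows, by complex and then by fold change) in each library (columns, KO left of the vertical line), as log2(CPM + 0.5) minus the gene's median over the 10 libraries. Colours end at 3 in either direction. WT 1 is red in most rows, and WT 2 and WT 4 are dark blue in the same few rows of complexes I, III, IV and V.

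Complex I, the NADH dehydrogenase, had 37 of 38 members tested. None passed the test, with a median log2 fold change of -0.29 and 30 of 37 negative. The sum of its members ran from 2809 (KO 4) to 4819 (KO 3) CPM in KO, and was 7613, 3278, 2859 and 4236 CPM in WT 1 to 4. 3 WT libraries thus lay inside the KO range and WT 1 above it. The difference of mean log2 sums (KO minus WT) was -0.15 over all libraries, 0.15 without WT 1 and -0.27 without both WT 2 and WT 4.

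Ndufs1, the large iron-sulphur subunit of the electron input arm, had the most negative fold change of complex I. Its CPM had a lowest, median and highest value of 44.1, 74.1 and 107 in KO, and was 96.3, 180, 111 and 152 in WT 1 to 4. WT 1 fell inside the KO range and the other 3 WT libraries above it (edgeR log2 fold change -0.79, SE 0.31, adjusted p = 0.21).

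Ndufv1, the NADH-binding subunit, had a smaller fold change than Ndufs1. Its CPM was 235, 254 and 317 (lowest, median, highest) in KO and 372, 259, 228 and 299 in WT 1 to 4 (edgeR log2 fold change -0.15, SE 0.21, adjusted p = 0.75). Ndufs8, another iron-sulphur subunit, had the highest level per length of the complex, 276 CPM per kb over the 10 libraries. It stood at 151, 210 and 299 CPM in KO (lowest, median, highest) and 585, 258, 174 and 306 CPM in WT, with WT 1 and WT 4 above all KO libraries (edgeR log2 fold change -0.57, SE 0.34, adjusted p = 0.41). Ndufa4, named for complex I but found in complex IV, had a log2 fold change of -0.71. It was 242, 132, 77.4 and 179 CPM in WT 1 to 4, with WT 2 and WT 3 inside the KO range of 43.4 to 139 CPM. Its paralog Ndufa4l2, known as a hypoxia-induced gene, had 1 count in WT 4 and 0 in the other 9 libraries.

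Complex II, succinate dehydrogenase, oxidises succinate as part of both the chain and the citric acid cycle. Its summed level was the steadiest between libraries, at 1110 to 1294 CPM in KO and 1635, 1559, 1243 and 1716 CPM in WT 1 to 4. WT 3 lay inside the KO range and the other 3 WT libraries above it (difference of mean log2 sums -0.35, with an SD over libraries of 0.094 in KO and 0.21 in WT). It was -0.31 without WT 1 and -0.21 without both WT 2 and WT 4. All 4 members had a negative fold change and none passed the test, with edgeR adjusted p from 0.23 to 0.69.

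The 4 genes did not share 1 pattern over the WT libraries. Sdha, the flavoprotein that binds succinate, was 334, 429 and 593 CPM (lowest, median, highest) in KO and 229, 712, 584 and 623 CPM in WT 1 to 4, so WT 1 was the lowest of the 10 libraries (log2 fold change -0.28, SE 0.32). Sdhb, the iron-sulphur subunit, was highest in that same library, at 758 CPM, with WT 2 to 4 at 296 to 442 CPM and KO at 280 to 445 CPM. Sdhc, a membrane anchor, was likewise highest in WT 1, at 368 CPM, with WT 2 to 4 at 141 to 281 CPM and KO at 129 to 259 CPM.

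Sdhd, the other membrane anchor, was 183, 199 and 256 CPM (lowest, median, highest) in KO and 281, 335, 216 and 369 CPM in WT 1 to 4. Only WT 3 lay inside the KO range, and the difference did not pass after adjustment (edgeR log2 fold change -0.54, SE 0.22, adjusted p = 0.23). Per length Sdhd was the most abundant of the complex, at 198 CPM per kb.

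Complex III, the cytochrome bc1 complex, had 8 of 8 members tested and 0 called. Fold changes ran from -0.72 to 0.81 with a median of -0.37 and 6 negative, while the difference of mean log2 sums was positive (0.36, SD 0.27 in KO and 0.82 in WT). The sum was 1259 to 2054 CPM in KO and 2848, 778, 1191 and 992 CPM in WT 1 to 4, so 3 WT libraries lay below every KO library and WT 1 above. Sum and median differed in sign, and Uqcrc1, with a positive fold change, alone was 786 to 1205 CPM of the sum in KO. Without both WT 2 and WT 4 the difference of mean log2 sums was -0.13, and without WT 1 it was 0.76.

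Uqcrc1, a core protein of the matrix side, was 786, 890 and 1205 CPM (lowest, median, highest) in KO and 1178, 101, 700 and 166 CPM in WT 1 to 4 (edgeR log2 fold change 0.81, SE 0.59, adjusted p = 0.51). WT 2 and WT 4 were far below all other libraries. Its partner core protein Uqcrc2 was 131, 208 and 230 CPM in KO and 238, 341, 210 and 330 CPM in WT, with WT 2 and WT 4 the highest (edgeR log2 fold change -0.51, SE 0.24, adjusted p = 0.30). The 2 core proteins, which pair in the complex, therefore had their extremes in the same 2 libraries with opposite sign.

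Uqcrfs1, the Rieske iron-sulphur protein, varied most in the complex. It stood at 24.3, 107 and 201 CPM (lowest, median, highest) in KO and 351, 4.61, 28.3 and 4.89 CPM in WT 1 to 4. WT 1 was the highest and WT 2 and WT 4 the lowest of all 10 libraries (edgeR log2 fold change 0.21, SE 1.16, adjusted p = 0.94). KO values also differed among themselves, with KO 1 to 3 at 169 to 201 CPM and KO 4 to 6 at 24.3 to 44.9 CPM. Uqcrb, a small subunit, had the most negative fold change (-0.72, SE 0.45), with 9.77, 36.9 and 54.1 CPM in KO and 74.2, 53.8, 32.4 and 77.9 CPM in WT. Uqcr10, another small subunit, had the highest level per length, 211 CPM per kb, and a log2 fold change of -0.28 (SE 0.45).

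**Figure D2:**
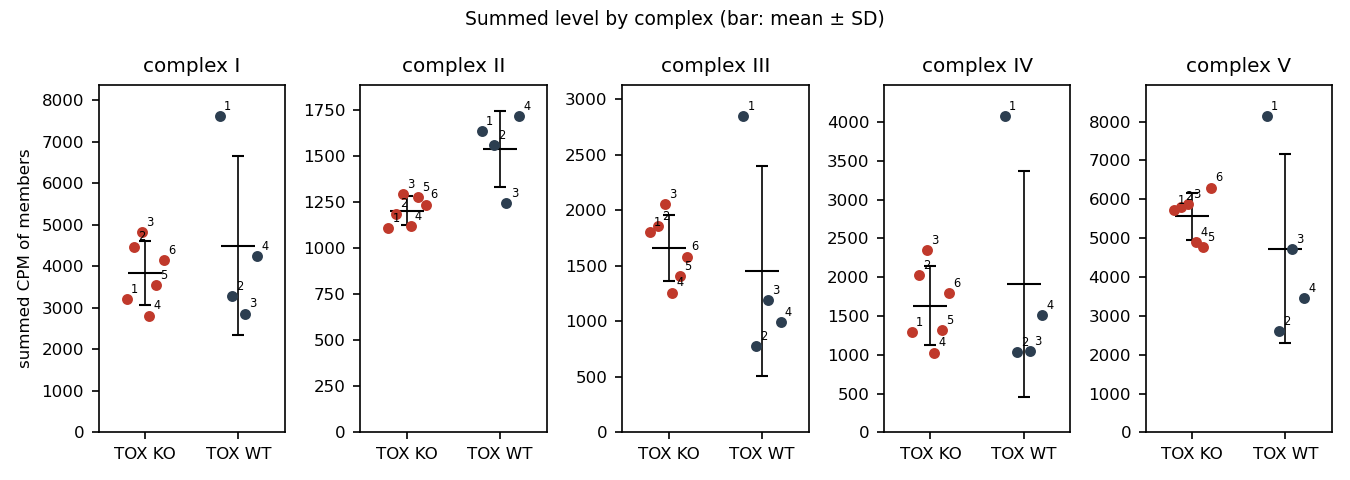
Summed CPM of the members of each complex in each library, with the replicate number beside each point, and the mean ± SD of each genotype. WT 1 is the highest library for complexes I, III, IV and V, and for complex II the KO libraries lie between 1110 and 1294 CPM.

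Complex IV, cytochrome c oxidase, had 14 of 18 members tested, and many of its subunits exist as paralogs with tissue-restricted forms. Its summed level was 1029 to 2347 CPM in KO and 4076, 1034, 1047 and 1507 CPM in WT 1 to 4, so that only WT 1 lay outside the KO range. The difference of mean log2 sums was -0.033 over all libraries, 0.42 without WT 1 and -0.35 without both WT 2 and WT 4.

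Cox6a2, the heart and skeletal muscle form of subunit VIa, was the 1 member that fell. It was at 0 CPM in KO 2 to 6 and 0.14 CPM (5 counts) in KO 1, and at 8.11, 1.51, 1.2 and 1.38 CPM in WT 1 to 4, 483 counts in all. Every WT library lay above every KO library (edgeR log2 fold change -6.94, SE 1.61, adjusted p = 0.045), although the fitted fold change rests on KO counts at or near 0. The call was lost in fits that left out 1 of KO 2 to KO 6 or of WT 2 to WT 4 (edgeR adjusted p 0.050 to 0.12), and in the fit with the replicate number as a block (edgeR adjusted p = 0.15), which called 0 of all 14214 genes. The gene lies at chr7:128205435-128206387 (GRCm38, minus strand), and 10.3% of its exon bases overlap Itgad, an integrin gene of macrophages and dendritic cells. The counting used no strand, so reads of the 2 genes cannot be told apart there.

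Several of the marker lists given above shared the split between genotypes with Cox6a2. Their summed CPM was higher in every WT library than in any KO library for the B and plasma cell, the myeloid and dendritic cell and the proliferation lists. The order among WT libraries was not shared by all. WT 1, highest for Cox6a2, was the lowest WT library for the B and plasma cell list (8298 CPM) and the myeloid and dendritic cell list (1647 CPM). For the proliferation list it was the highest (3397 CPM). Siglech, a marker of plasmacytoid dendritic cells, was at 0 to 0.73 CPM in KO and 0, 18.9, 11.2 and 15 CPM in WT 1 to 4. Tyrobp, a myeloid adaptor, was 0.55 to 12 CPM in KO and 81, 78.4, 75.8 and 256 CPM in WT (edgeR log2 fold change -4.63, edgeR adjusted p = 0.016). The part of such cells in the Cox6a2 values was not tested. The ubiquitous form, Cox6a1, was 122, 224 and 345 CPM (lowest, median, highest) in KO and 557, 23.7, 148 and 48.1 CPM in WT (edgeR log2 fold change 0.25, SE 0.74, adjusted p = 0.88).

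The other restricted forms were also low. Cox4i2, the form used in lung and under low oxygen, was 0, 0.18 and 0.36 CPM (lowest, median, highest) in KO and 1.74, 0.48, 0.24 and 2.81 CPM in WT 1 to 4. WT 3 lay inside the KO range (edgeR log2 fold change -3.02, SE 1.08, adjusted p = 0.18). With DESeq2, which called 7.03% of all genes lower, this gene was called (log2 fold change -3.06, DESeq2 adjusted p = 0.036) and Cox6a2 received no adjusted p. Cox4i1, the ubiquitous form, had the highest level per length of complex IV, 365 CPM per kb against 0.79 CPM per kb for Cox4i2, and stood at 340, 506 and 683 CPM in KO and 1201, 435, 329 and 626 CPM in WT (edgeR log2 fold change -0.34, SE 0.36).

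Cox6b2, the testis form of subunit VIb, was 0 to 1.17 CPM in KO and 0.14 to 2.53 CPM in WT, beside 71.9 to 194 CPM and 90.5 to 337 CPM for Cox6b1. Cox7a1, the muscle form of subunit VIIa, was at most 2.12 CPM, in WT 1. Its ubiquitous relatives were Cox7a2 (log2 fold change -0.70, SE 0.43) and Cox7a2l (-0.39, SE 0.27). Cox7b had a log2 fold change of -0.55 (SE 0.42) and Cox8a of 0.19 (SE 0.83), while their relatives Cox7b2, Cox8b and Cox8c had no counts. In each of these families the ubiquitous form made up nearly all of the signal in both genotypes.

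Cox5a and Cox5b are the matrix-facing subunits that bind the catalytic core. Cox5a was 16.9, 79.8 and 164 CPM (lowest, median, highest) in KO and 379, 0.88, 30.3 and 4.02 CPM in WT 1 to 4 (edgeR log2 fold change -0.26, SE 1.25, adjusted p = 0.93). WT 2 and WT 4 were the lowest of all libraries and WT 1 the highest, the order also seen for Uqcrfs1. Cox5b showed a narrower form of it, at 87.4, 116 and 159 CPM in KO and 294, 17.3, 70.3 and 37.9 CPM in WT (edgeR log2 fold change 0.22, SE 0.65).

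Complex V, the ATP synthase, had 17 of 17 members tested and 0 called, with fold changes from -0.73 to 0.77, a median of -0.36 and 12 negative. The prefix also takes Atp5s and Atp5sl, which are not structural subunits of the enzyme. The summed level was 4763 to 6299 CPM in KO and 8139, 2602, 4709 and 3458 CPM in WT 1 to 4. WT 1 lay above all KO libraries and the other 3 WT libraries below them. The difference of mean log2 sums was 0.36 over all libraries, 0.67 without WT 1 and -0.12 without both WT 2 and WT 4.

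Within library numbers 1 to 3 the differences of mean log2 sums of complexes I to V were -0.85, -0.41, -0.54, -1.11 and -0.45. Within numbers 4 to 8 they were 0.080, -0.24, 0.60, 0.25 and 0.66. Complex II kept a negative difference in both sets, and the other 4 complexes changed sign between them.

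The 3 large subunits of the catalytic F1 head did not follow each other. Atp5b, the catalytic beta subunit, was 1120, 1797 and 2217 CPM (lowest, median, highest) in KO and 2233, 149, 1605 and 232 CPM in WT 1 to 4 (edgeR log2 fold change 0.77, SE 0.66, adjusted p = 0.58). WT 2 and WT 4 were far below all others. Atp5a1, the alpha subunit and the most abundant of the complex per length at 438 CPM per kb, was 1291, 1494 and 1736 CPM in KO and 1366, 771, 1409 and 1054 CPM in WT, lowest in those libraries but less so (edgeR log2 fold change 0.41, SE 0.22, adjusted p = 0.36). Atp5c1, the gamma subunit of the central stalk, was 276, 356 and 444 CPM in KO and 525, 458, 375 and 529 CPM in WT, with 3 WT libraries above all KO libraries (edgeR log2 fold change -0.37, SE 0.21, adjusted p = 0.40).

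The 3 genes of the membrane ring subunit c encode the same mature protein. Atp5g3 was the most abundant in every library, at 227 to 456 CPM in KO and 889, 116, 261 and 194 CPM in WT 1 to 4. Atp5g1 was 59.7 to 139 CPM in KO and 69.2 to 243 CPM in WT (edgeR log2 fold change -0.50, SE 0.37), and Atp5g2 was 16.4 to 29.3 CPM in KO and 15.1 to 51 CPM in WT (-0.39, SE 0.39). Per length the order over all libraries was Atp5g3 at 164, Atp5g1 at 24.6 and Atp5g2 at 15.2 CPM per kb. Atp5g3 was the 1 member for which the genotype difference itself differed between library numbers 4 to 8 and 1 to 3 (interaction on the log2 scale 2.27, edgeR adjusted p = 0.047), beside 10% of 14214 genes called in that test. Without adjustment 11 of 80 members passed this interaction test, beside 25.2% of all genes. Atp5l, a membrane subunit, had the most negative fold change of the complex at a low level (log2 fold change -0.73, SE 0.45, 5.44 to 10.8 CPM in KO and 5.77 to 21 CPM in WT).

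**Figure D3:**
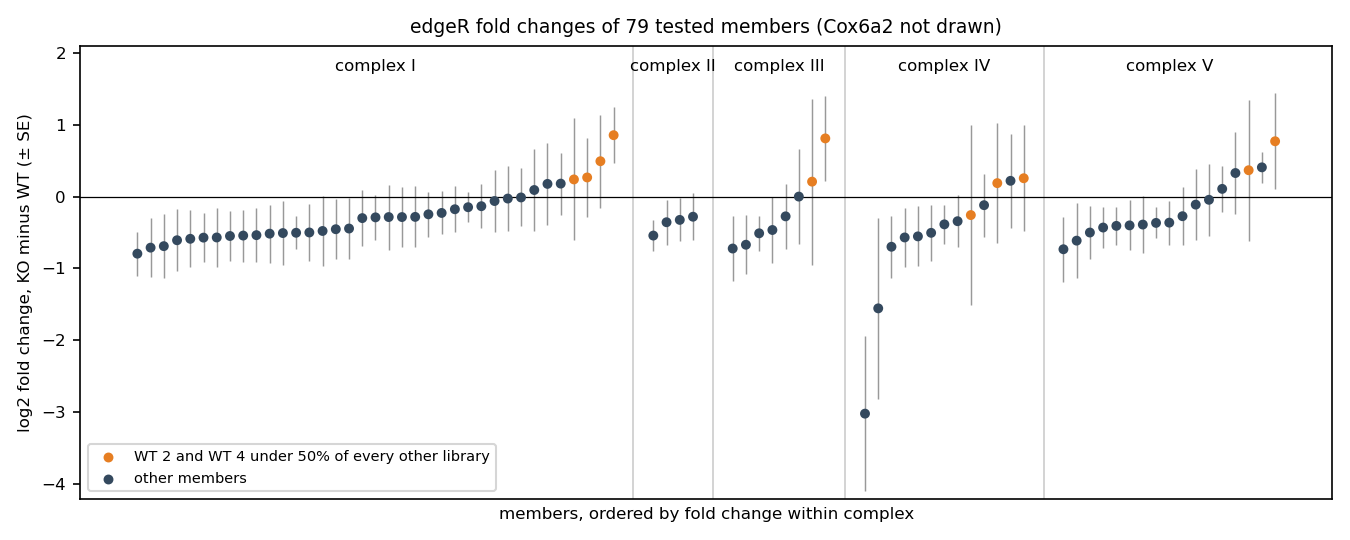
Log2 fold change (KO minus WT) ± SE of 79 tested members, ordered within each complex, with Cox6a2 left out for scale. Orange points are the 11 members that were under 50% of every other library in both WT 2 and WT 4, and 10 of these 11 are above 0, a direction that the choice itself favours.

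In both WT 2 and WT 4, 11 members were under 50% of each of the other 8 libraries, among them Ndufa6, Ndufa10 and Ndufab1 of complex I, Uqcrc1 and Uqcrfs1 of complex III, Cox5a, Cox6a1 and Cox8a of complex IV, and Atp5b and Atp5d of complex V. None was from complex II. This set was made from the values, after they were seen, and is described without a test. Just inside the limit were Ndufa10 and Cox6a1, whose higher value in the 2 libraries was 0.40 and 0.39 of the lowest other library, and just outside were Cox5b at 0.54 and Ndufs7 at 0.59. The 11 summed to 417 CPM in WT 2 and 656 CPM in WT 4, against 2917 to 7122 CPM in the other 8 libraries. The remaining 74 members summed to 8834 and 11253 CPM there, inside the range of 7449 to 17189 CPM of the others.

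Atp5d, the delta subunit of the central stalk, shows the size of the gap. It stood at 200, 504 and 682 CPM (lowest, median, highest) in KO and at 1223, 14.5, 230 and 27.2 CPM in WT 1 to 4. WT 3 lay inside the KO range (edgeR log2 fold change 0.37, SE 0.98, adjusted p = 0.87). The 11 had a median log2 fold change of 0.27 with 10 positive, and the other 69 tested members a median of -0.40 with 62 negative. Low values in 2 of the 4 WT libraries chose the 11 and push KO minus WT upward, so these signs follow in part from the choice. Of the 17 members with a positive fold change, 10 were among the 11.

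Such a drop was not particular to the respiratory chain. Over all genes tested, 7.37% met the same rule. Among the 5100 genes averaging 30 CPM or more it was 14.4%, and among members of that level it was 10 of 67, or 14.9%, a share near the background. The electron carrier Cyc1, cytochrome c1 of complex III, is outside the symbol rule and met it as well, at 5.3 CPM in WT 2 and 9.34 CPM in WT 4 against 53.6 to 634 CPM elsewhere.

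The low members had GC-rich stretches, of which those of Cox5a, Uqcrfs1 and Atp5d are printed above. Their GC-richest 100 bases of transcript held 73% to 81% GC (median 77%), against 56% to 81% (median 68%) in the other 69. Across the 80 members the level in a library relative to the gene's median had a Spearman correlation with this GC content of -0.67 in WT 2 and -0.66 in WT 4. It was 0.13 in WT 3, 0.21 in WT 1 and between 0.04 (KO 5) and 0.61 (KO 1) in KO. Over 4858 genes of at least 30 CPM the values were -0.56 in WT 2, -0.56 in WT 4, -0.20 in WT 3 and 0.16 in WT 1, and ran from -0.27 (KO 5) to 0.62 (KO 1) in KO. In WT 3 and KO 5 the sign over these genes was thus opposite to that over the members. The same held for KO 6, at 0.18 over members and -0.012 over these genes. In 4 bins of these genes by the same GC content, 0.569%, 7.04%, 29.8% and 20.9% met the rule, from the poorest to the richest. With a trend on this GC content removed in each library, a choice made after seeing the data, the member median was -0.42 beside -0.31 for all genes, and 0 members were called, with Cox6a2 at edgeR adjusted p = 0.057.

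**Figure D4:**
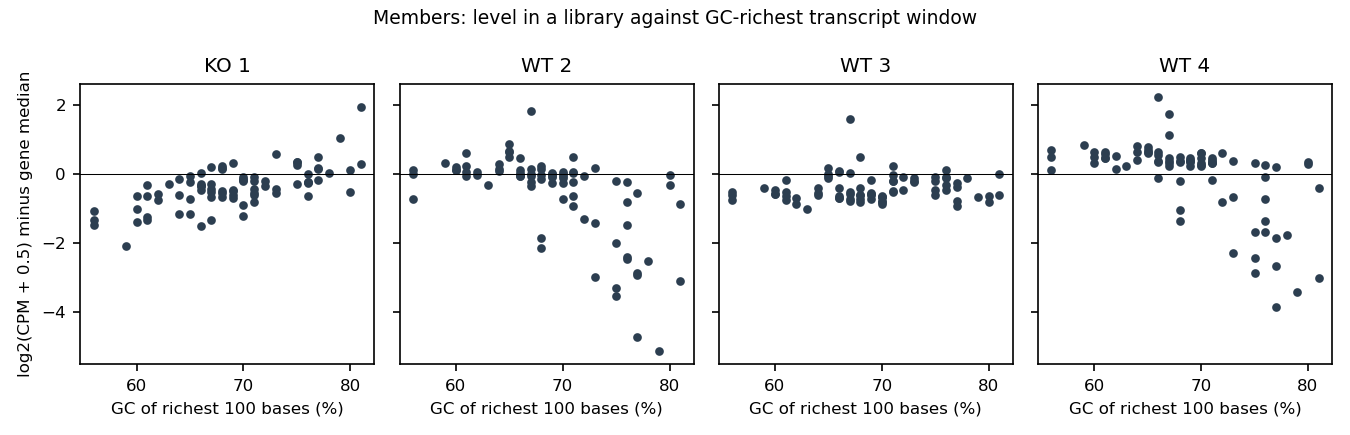
Level of each of the 80 tested members in 4 libraries, as log2(CPM + 0.5) minus the gene's median over 10 libraries, against the GC content of its GC-richest 100 bases of transcript. In WT 2 and WT 4 the points fall away above about 70% GC, in WT 3 they do not, and in KO 1 they rise with GC.

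Promoter letters, which the symbol rule did not use, were also compared. In the RefSeq table (GRCm38.p6), 67 members had a promoter of 250 bases before to 50 after the start. In 42 of these, the bases just after the start were found near the start of the gene's longest protein-coding GENCODE M21 transcript. For the others the start was not matched in this way. The NRF1 motif (GCGCA, any base, then GCGC), for a regulator of respiratory chain genes, was found on either strand in 17 of 67 (25.4%), beside 5.18% of 26994 genes. The ETS letters CCGGAAG, bound by GABP among others, were in 16 (23.9%, beside 9.92% of genes), and the YY1 letters AAGATGGC in 9 (13.4%, beside 3.18%). Any of the 3 was in 36 of the 67, and the share over all genes was not computed for this. The 26994 genes were all those with such a promoter and were not limited to the 14214 tested here. Atp5h, Atp5k, Cox6a1 and Sdhd held both NRF1 and ETS letters. A match describes letters and not binding. The following upstream stretches of 60 bases are given as examples from different complexes, read along the gene's strand, with the NRF1 match in capitals.
Ndufb4 (chr16:37654525-37654584, minus strand): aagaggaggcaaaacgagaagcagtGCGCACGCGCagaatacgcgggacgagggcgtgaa
Sdha (chr13:74350304-74350363, minus strand): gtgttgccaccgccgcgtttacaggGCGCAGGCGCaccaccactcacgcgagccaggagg
Sdhd (chr9:50603894-50603953, minus strand): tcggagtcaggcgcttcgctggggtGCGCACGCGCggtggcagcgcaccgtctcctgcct
Cox6a1 (chr5:115349086-115349145, minus strand): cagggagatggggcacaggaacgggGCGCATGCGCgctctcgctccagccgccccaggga
The 17 members with NRF1 letters had a median log2 fold change of -0.37, with 14 negative and a range of -0.69 to 0.81. All 80 tested members had a median of -0.35. Nrf1 itself was 138 to 194 CPM in KO and 105, 75.7, 155 and 84.6 CPM in WT 1 to 4 (edgeR log2 fold change 0.67, SE 0.26, adjusted p = 0.21).

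Other lists of the same pathway also gave 0 called genes with edgeR. The 13 subunits encoded by mitochondrial DNA had 8 genes tested, all 8 with negative fold changes (median -1.59). Of them 4 were lower at edgeR unadjusted p under 0.05, beside 10.8% of all genes. Their sum was 20.4 to 272 CPM in KO and 94.8, 910, 530 and 761 CPM in WT 1 to 4, with WT 1 inside the KO range. mt-Co1, the catalytic subunit of complex IV, made up most of it, at 15.3 to 211 CPM in KO and 60.7, 704, 387 and 555 CPM in WT (edgeR log2 fold change -1.80, SE 0.70, adjusted p = 0.21). mt-Cytb of complex III was 2.32 to 31.5 CPM in KO and 19.7, 121, 73.9 and 101 CPM in WT (-2.30, SE 0.65, edgeR adjusted p = 0.096). The WT library highest in nuclear members, WT 1, was thus the lowest WT library in mitochondrial ones. The counting left out reads that match several places, 5 of the 13 genes had no count, and these levels are therefore uncertain.

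Electron carriers and coenzyme Q genes (16 tested) had 8 negative and 8 positive fold changes, assembly factors (45 tested) 26 negative and 19 positive, and citric acid cycle genes (14 tested) 9 negative and 5 positive. Their medians were 0.01, -0.10 and -0.13, near the -0.12 of all genes. Regulators of mitochondrial biogenesis (19 tested) had a median of 0.21 with 8 negative and 11 positive. Of them 4 were higher at edgeR unadjusted p under 0.05, beside 7.15% of all genes. Myc, a transcription factor that drives growth and mitochondrial genes, was one of them at 60.4 to 177 CPM in KO and 50.4, 16.5, 86.6 and 29 CPM in WT (edgeR log2 fold change 1.34, SE 0.51, adjusted p = 0.20). Myc and Nrf1 were both lower in WT 1, WT 2 and WT 4 than in any KO library. Both are among the 11 regulators with a positive fold change, and neither was called.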

How the data were processed

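RNA of sorted CD4 T cells was amplified with SMART-seq V4 and sequenced as read pairs, per the labels' protocols. The deposited counts per gene come from featureCounts 1.6.2, which the authors ran on GENCODE M17 (GRCm38.p6), per the file headers. No strand option was set and reads matching several places were not counted, so near-identical copies are undercounted. The submitters' processing notes also list FastQC and STAR.

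Genes were kept with filterByExpr (14214 of 53656), libraries were scaled by TMM, and genotypes were tested with edgeR's quasi-likelihood F test (version 4.0.16, with limma 3.58.1 and R 4.3.3) over all 10 libraries, genotype being the only term. P-values were adjusted by Benjamini-Hochberg over all genes tested, threshold 0.05. SE is the fold change divided by the square root of F. CPM used TMM-scaled library sizes. Complex sums are CPM added over members and carry no test. CPM per kb divides by the length in the files. The procedure was tested on simulated counts with known changes, in genes with a mean above that of Cox6a2 and with libraries drawn independently. Members near 0 counts and libraries that stand apart were thus not covered. No pair of libraries within a group agreed within sampling noise (smallest chi-square per degree of freedom 122 over 21 pairs).

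Members and gene lists were chosen with earlier results of these data known. Named with values were members past the threshold or without overlap, the most abundant per length and the extremes of each complex, the catalytic or structural core, and paralog families. Alternatives covered scaling, filters, DESeq2 1.42.0, limma-voom, library sets, blocks and leaving out libraries. Chosen after seeing the data were the removal of a GC trend and leaving out WT 2 and WT 4. Figures used matplotlib 3.10.9. Values of 1 member are not reported here.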

Additional observations from a re-analysis of the deposited data

Results flagged for a closer look

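Of 76 groups of libraries checked, 7 held a value whose gap to its nearest neighbour was large for the range of the group. The limit would flag about 1 in 20 groups if values were normally distributed and groups independent. These groups share libraries, so the count cannot be set against that rate. In WT replicate 1 the flagged values were the summed CPM of complex IV at 4076 (next WT library 1507), Uqcrfs1 at 351 CPM (next 28.3), Cox5a at 379 CPM (next 30.3) and Cox6a2 at 8.11 CPM (next 1.51). In the KO group they were Ndufv1 at 317 CPM in KO replicate 1 (next 259), Cox7a2l at 158 CPM in KO replicate 3 (next 105) and Cox6a2 at 0.14 CPM in KO replicate 1. For Cox6a2 the other 5 KO libraries were at 0, so any value above 0 would have been flagged.

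The genotype difference of Atp5g3 differed between libraries numbered 4 to 8 and those numbered 1 to 3 by 2.27 on the log2 scale (edgeR interaction test, adjusted p = 0.047). The lower numbers hold 1 WT library, WT 1, so that library and the number set cannot be told apart in this test. Without adjustment 11 of 80 members passed it, beside 25.2% of all genes.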

How the results depend on the processing

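The call of Cox6a2 decided the count of members lower in KO. That count was 1, and it was 0 with immunoglobulin genes removed, without a filter, within library numbers 1 to 3, with the length trend or the GC trend removed, without both WT replicates 2 and 4 (also within numbers 4 to 8), and 26 when scaled to T cell genes. With the replicate number or the library number as a replicate block it was also 0, with medians of -0.30 and -0.31, and each of these fits called 0 of all 14214 genes in either direction. The replicate numbers are not said to pair animals, and the deviations of same-numbered libraries correlated at 0.28, -0.25, -0.22 and 0.30. Leaving out 1 library gave 0 to 1 lower and 0 to 1 higher, the latter Ndufs7 without WT 1 (1.32, edgeR adjusted p = 0.043), in a fit that called 443 of 15197 genes higher. DESeq2 called 999 genes lower and 613 higher where edgeR called 384 and 61.

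Scaled to T cell genes, the member median was -0.998 and the sums of complexes I to V were -0.91, -1.11, -0.40, -0.80 and -0.40, with Cox5b at -0.27, Cox6a1 at -0.24, Cox8a at -0.21 and Atp5a1 at -0.41. Within numbers 1 to 3 the median was -0.97 and the sums of complexes I, III, IV and V were -0.85, -0.54, -1.11 and -0.45, with Sdha at 0.65, Uqcrc1 -0.092, Uqcrfs1 -0.87, Cox5b -1.05, Cox6a1 -0.94, Cox8a -1.11 and Atp5b -0.20. Within numbers 4 to 8 Uqcr10 was 0.18, Cox4i1 0.037, Cox5a 1.73, Atp5g2 0.025 and Atp5g3 0.97, and with WT 2 and WT 4 also left out the median was 0.37 and the complex II sum -0.037. With the library set as a term Sdha was 0.011, Cox5a 0.44 and Atp5g3 0.051. Without WT 2 and WT 4, Sdha was 0.15, Uqcrfs1 -0.69, Cox5b -0.51, Cox6a1 -0.54, Cox8a -0.65, Atp5b -0.050 and the complex V sum -0.12.

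With the GC trend removed Uqcrfs1 was -0.55, Cox5b -0.50, Cox6a1 -0.42, Cox7b 0.25, Cox8a -0.52 and Atp5a1 -0.28, and with the length trend removed Uqcr10 was 0.26. With the replicate number as a replicate block Cox5a was 2.81 and Atp5g3 0.34. With the library number as a replicate block Sdha was 0.30, Uqcrc1 -0.051, Uqcrfs1 -0.52, Cox5b -0.20, Cox6a1 -0.35, Cox8a -0.51 and Atp5b -0.40. Cox5a was 2.13 with limma-voom. Atp5g3, at -0.05 in the report, was 0.0020 with DESeq2 or its size factors, 0.020 with library totals, 0.067 without immunoglobulin genes, 0.086 without a filter, 0.044 with a 1 CPM filter and 0.34 with limma-voom. Leaving out 1 library gave ranges of -0.60 to 0.0098 for Atp5g2, -0.21 to 0.90 for Atp5g3, -0.56 to 0.14 for Cox4i1, -0.55 to 2.88 for Cox5a, -0.047 to 1.98 for Cox8a, -0.24 to 0.00016 for Ndufv1, -0.47 to 0.054 for Sdhb, -0.54 to 0.37 for Uqcr10 and -0.088 to 3.16 for Uqcrfs1. The cause of these shifts was not tested. Of the values of single genes under all alternatives, 792 kept their direction and side of the threshold, 16 lost a call, 12 gained 1 and 68 changed sign. Within numbers 1 to 3 there is 1 WT library, assumed to vary like the KO libraries. Members near 0 counts, such as Cox6a2, are limited by depth, and 3 members had no count at all.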
